A study of Rattus norvegicus with 6 samples.

Results

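The genes described here are those of glycolysis and of the response to low oxygen. They were taken by symbol from a list of 38 set by known role, and earlier results of these data were known when it was made. Rows for 36 of them were found among the 30560 genes of the expression matrices, and Pfkfb1 and Pgk1 were not analysed here. They comprise the PFK-2 isozymes Pfkfb2, Pfkfb3 and Pfkfb4, the glucose carriers Slc2a1 and Slc2a3, the lactate carriers Slc16a1 and Slc16a3, 16 enzymes of glycolysis and lactate formation, the pyruvate dehydrogenase kinases Pdk1, Pdk3 and Pdk4, the glycerol phosphate enzyme Gpd1, the hypoxia-inducible factor subunits Hif1a and Epas1, the prolyl hydroxylases Egln1 and Egln3, and the hypoxia targets Vegfa, Bnip3, Ankrd37, Ndrg1 and Ddit4. Their levels were followed across 8 neuronal and glial classes of the rat forebrain after permanent middle cerebral artery occlusion (MCAO), in which a filament blocks the vessel that feeds the lateral cortex and striatum.

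All rats were wild-type male Wistar animals 12 weeks old, and tissue was taken 48 h after surgery. Nuclei of 4 Sham-operated rats were pooled into a left library (Sham L) and a right library (Sham R). The right artery was occluded in the MCAO rats, so that the right hemisphere is ipsilateral (ipsi) and the left contralateral (contra) to the lesion. Nuclei of 3 rats with moderate lesions (mMCAO) and of 4 rats with severe lesions (sMCAO) gave an ipsi and a contra library each. The 3 groups, Sham, MCAO contra and MCAO ipsi, thus hold 2 libraries each. The libraries of a group are hemispheres of the same rats (Sham) or pools of different lesion severity (MCAO), so p-values measure only the spread between these libraries, and ipsi and contra libraries of a pool come from the same rats.

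Glycolysis splits glucose into pyruvate, which cells reduce to lactate when mitochondrial respiration cannot take it up. The PFK-2 isozymes make the sugar phosphate that activates phosphofructokinase, and astrocytes are known for a high glycolytic rate and for releasing lactate. Under low oxygen the prolyl hydroxylases stop marking the HIF alpha subunits for degradation, and the stabilised factor raises the transcription of glucose carriers, glycolytic enzymes and Vegfa. HIF activity is set mainly at the protein level, which nuclear RNA does not measure.

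The libraries held 8774 to 14508 nuclei and 33012945 to 52513380 unique molecular identifiers (UMIs, counts of captured RNA molecules), and any 2 libraries shared at most 280 cell barcodes. Classes were set by marker lists that contain none of the 36 genes, and 43.6% to 66.5% of the nuclei of a library entered a class. The summed astrocyte markers, for example, stood at 14191 to 16859 CPM (UMIs of a gene scaled to a fixed class total) in astrocytes and at 271 to 349 CPM in glutamatergic neurons. Neurons made up 63.0% to 81.0% of nuclei in 5 libraries and 30.8% in sMCAO ipsi, which was also the library with most myeloid nuclei (1605, against 9 and 19 in Sham). Neuronal RNA in astrocytes, a measure of free RNA, stood at 25.8% and 22.3% of the neuronal level in Sham, 15.0% and 17.3% in MCAO contra, and 11.6% and 7.7% in MCAO ipsi. With that RNA subtracted, Pfkfb3, Vegfa and Aldoc kept their calls in astrocytes in both ipsi comparisons and Hif1a its call in OPC, and Slc16a1 had a log2 fold change of 1.44, near that of the unsubtracted counts, and missed the threshold (edgeR adjusted p = 0.0759). Sham astrocytes were the fewest and shallowest, with 230 and 177 nuclei against 463 and 529 in MCAO ipsi and with median UMIs per nucleus of 755 and 598 against 1237 and 2280.

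In Sham, several of the genes were concentrated in a single class. Slc2a1 (GLUT1, the glucose carrier of the blood-brain barrier) stood at 1301 and 1256 CPM in vascular nuclei of Sham L and Sham R and at 25.8 CPM or less in every other tested class. Epas1 (HIF-2 alpha) was likewise vascular, at 1326 and 1356 CPM, with 118 and 103 CPM in astrocytes as the next level. Gpd1, which links glycolysis to glycerol lipid synthesis, stood at 202 and 162 CPM in oligodendrocytes and at 16.6 CPM or less in the other tested classes. Ndrg1, a hypoxia target also tied to myelination, stood at 142 and 134 CPM in oligodendrocytes and at 347 and 402 CPM in vascular nuclei. Vegfa, the growth factor of blood vessels, was highest in astrocytes (315 and 283 CPM) and in oligodendrocyte precursor cells (OPC, 128 and 122 CPM). Aldoc, the aldolase isozyme used as an astrocyte marker, stood at 150 and 129 CPM in astrocytes and at 14.1 CPM or less in the other tested classes. Eno2 (neuron-specific enolase) stood at 66.6 to 94.2 CPM over the 4 neuronal classes and at 45.9 CPM or less in the other tested classes. Slc2a3 (GLUT3, the neuronal glucose carrier) stood at 46.6 to 89.7 CPM in neurons, a range that overlapped OPC (25.6 and 76.5 CPM). The OPC values rest on class totals of only 117331 and 65383 UMIs. Neuronal RNA in these OPC stood at 26.6% and 24.5% of the neuronal level, and its part in the overlap was not tested. Hk2, the inducible hexokinase, was a myeloid transcript, at 155 and 127 CPM in the myeloid nuclei of mMCAO ipsi and sMCAO ipsi. These are descriptions of level, with no test between classes.

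**Figure D1:**
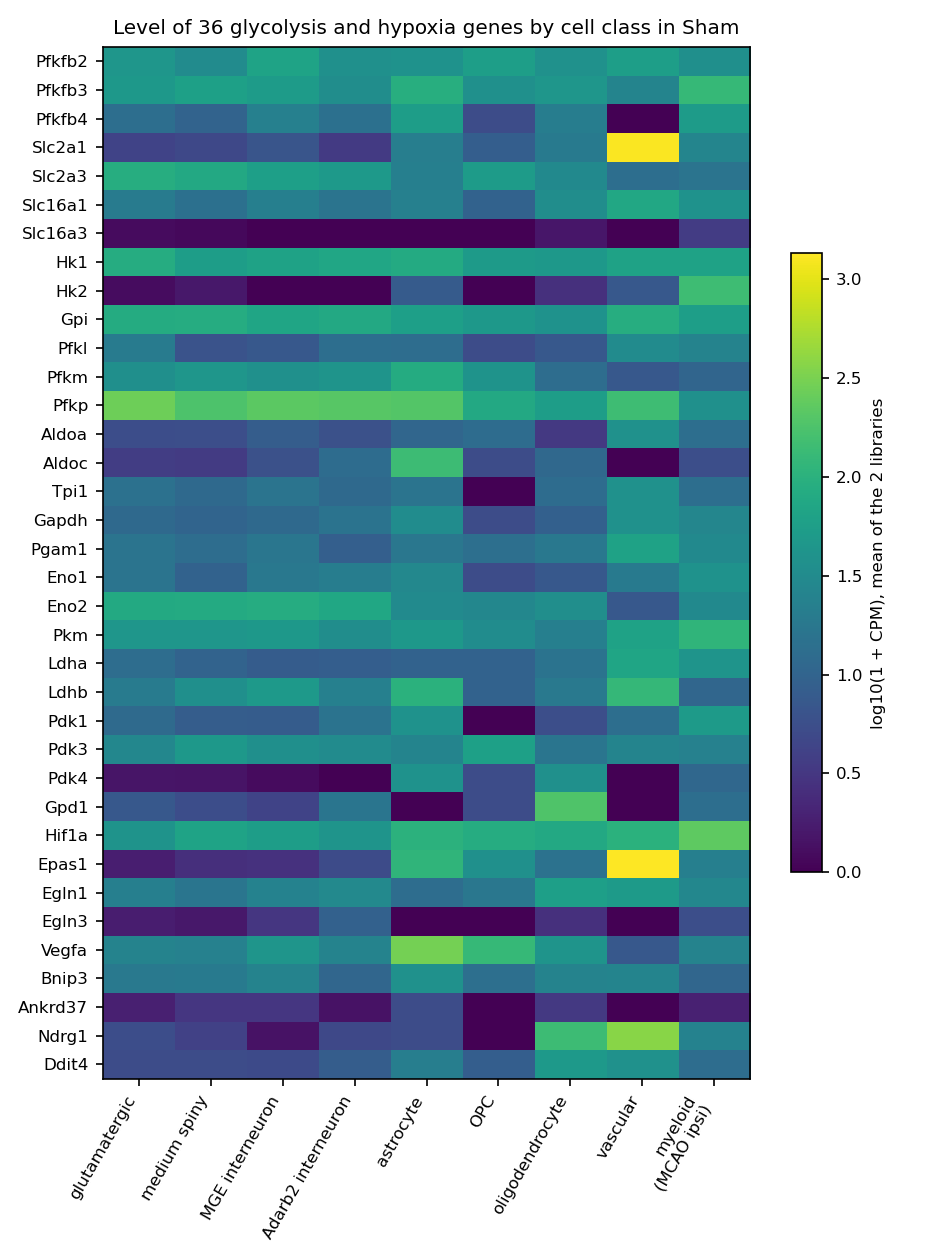
Mean CPM of the 36 genes in the 2 Sham libraries by cell class, as log10(1 + CPM), with myeloid nuclei shown from the 2 MCAO ipsi libraries because Sham held 9 and 19 of them. Bright cells include Slc2a1, Epas1 and Ndrg1 in vascular nuclei, Vegfa in astrocytes, Pfkp in glutamatergic neurons, and Gpd1 and Ndrg1 in oligodendrocytes.

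A gene was called when edgeR's quasi-likelihood test on the summed UMIs gave a Benjamini-Hochberg adjusted p under 0.05 over all genes tested in that class and the log2 fold change was at least 0.6 in size. After filtering, 35 of the 36 genes could be tested in at least 1 class, Slc16a3 (the lactate exporter MCT4) in none, and only Hk1, Pfkp, Gpi and Hif1a in all 8. Of these, 7 genes were called, each in a single class. In MCAO ipsi against Sham, 4 of 21 tested genes were called in astrocytes, 2 higher and 2 lower, where 14.8% of all tested genes were called. In glutamatergic neurons 2 of 34 were called, both higher, against 6.03% of all genes. None was called in medium spiny neurons of the striatum (28 tested, background 3.09%), in interneurons of the medial ganglionic eminence lineage (MGE, 28 tested, 1.06%), in Adarb2 interneurons (25 tested, 0.551%), in OPC (12 tested, 5.13%), in oligodendrocytes (29 tested, 4.56%) or in vascular nuclei (9 tested, 0.0872%). At an unadjusted p under 0.05 the edgeR counts in these 6 classes were 4, 3, 4, 2, 6 and 2. Over all genes edgeR gave 2060 of 11214, 1570 of 10501, 1101 of 8890, 1003 of 6006, 1966 of 9317 and 582 of 3441 there. DESeq2 called no gene of the group in these classes, with 3, 0, 1, 1, 3 and 0 at an unadjusted p under 0.05. Of all genes DESeq2 called 1.38% in medium spiny neurons, 0.295% in MGE interneurons and 0.112% in Adarb2 interneurons. Its share in OPC, oligodendrocytes and vascular nuclei, and its shares at an unadjusted p, are not given here. The DESeq2 counts are thus not read as particular to the genes of the group. Leaving out 1 library moved the number of calls in these 6 classes. The move was largest in oligodendrocytes without mMCAO ipsi, where the share of all genes called rose as well. The shares called in astrocytes and in glutamatergic neurons lay near the background of all genes.

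In MCAO ipsi against MCAO contra, 3 of 21 genes were called in astrocytes (1 higher and 2 lower, background 12.6%), 1 of 34 in glutamatergic neurons (higher, background 3.49%) and 1 of 12 in OPC (higher, background 8.23%). None was called in medium spiny neurons (background 1.42%), MGE interneurons (0.343%), Adarb2 interneurons (0.09%), oligodendrocytes (0.0215%) or vascular nuclei (0.0872%). At an unadjusted p under 0.05 the edgeR counts in these 5 classes were 1, 1, 2, 6 and 3. Over all genes edgeR gave 1758 of 11214, 1284 of 10501, 843 of 8890, 1281 of 9317 and 422 of 3441 there. DESeq2 called no gene of the group in these classes, with 0, 0, 1, 3 and 1 at an unadjusted p under 0.05. Of all genes DESeq2 called 0.348% in medium spiny neurons, 0.162% in MGE interneurons and 0.0225% in Adarb2 interneurons. Its share in oligodendrocytes and vascular nuclei, and its shares at an unadjusted p, are not given here. These DESeq2 counts are likewise not read as particular to the group. Both comparisons use the same MCAO ipsi libraries. Across the tested genes of the group the median log2 fold change in MCAO ipsi against Sham lay between -0.07 and 0.23 in 7 classes. It was -0.51 over the 9 genes tested in vascular nuclei. The median over all tested genes lay within 0.034 of 0 in every class, where the normalization places it. A shift of the group as a whole was not tested.

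In MCAO contra against Sham no gene of the group was called in any class by edgeR or by DESeq2. The edgeR background was 0.0278% in glutamatergic neurons, 0.214% in medium spiny neurons, 0.0476% in MGE interneurons, 0.0112% in Adarb2 interneurons, 0.0333% in OPC and 0% in astrocytes, oligodendrocytes and vascular nuclei. For DESeq2 it was 0.347% in glutamatergic neurons, 0.0892% in medium spiny neurons and 0% in MGE interneurons, Adarb2 interneurons and astrocytes. The DESeq2 background of OPC, oligodendrocytes and vascular nuclei is not given here. At an unadjusted p under 0.05 edgeR gave 6 genes in glutamatergic neurons, 1 in medium spiny neurons, 3 in MGE interneurons, 1 in Adarb2 interneurons, 1 in astrocytes and 3 in oligodendrocytes, and none in OPC or vascular nuclei, where DESeq2 gave 2, 0, 1, 0, 0 and 1, and 0 in both. Over all genes edgeR gave 2128 of 14396, 1402 of 11214, 1026 of 10501, 709 of 8890, 515 of 6746 and 731 of 9317 there. In OPC and vascular nuclei it gave 434 of 6006 and 106 of 3441 of all genes. The smallest edgeR adjusted p of the group was 0.192, for Pfkp in glutamatergic neurons. Leaving out mMCAO ipsi or sMCAO ipsi moved Gapdh in MGE interneurons and Vegfa in oligodendrocytes past the limits for a call. In MGE interneurons the share of all genes called was also higher in those fits.

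**Figure D2:**
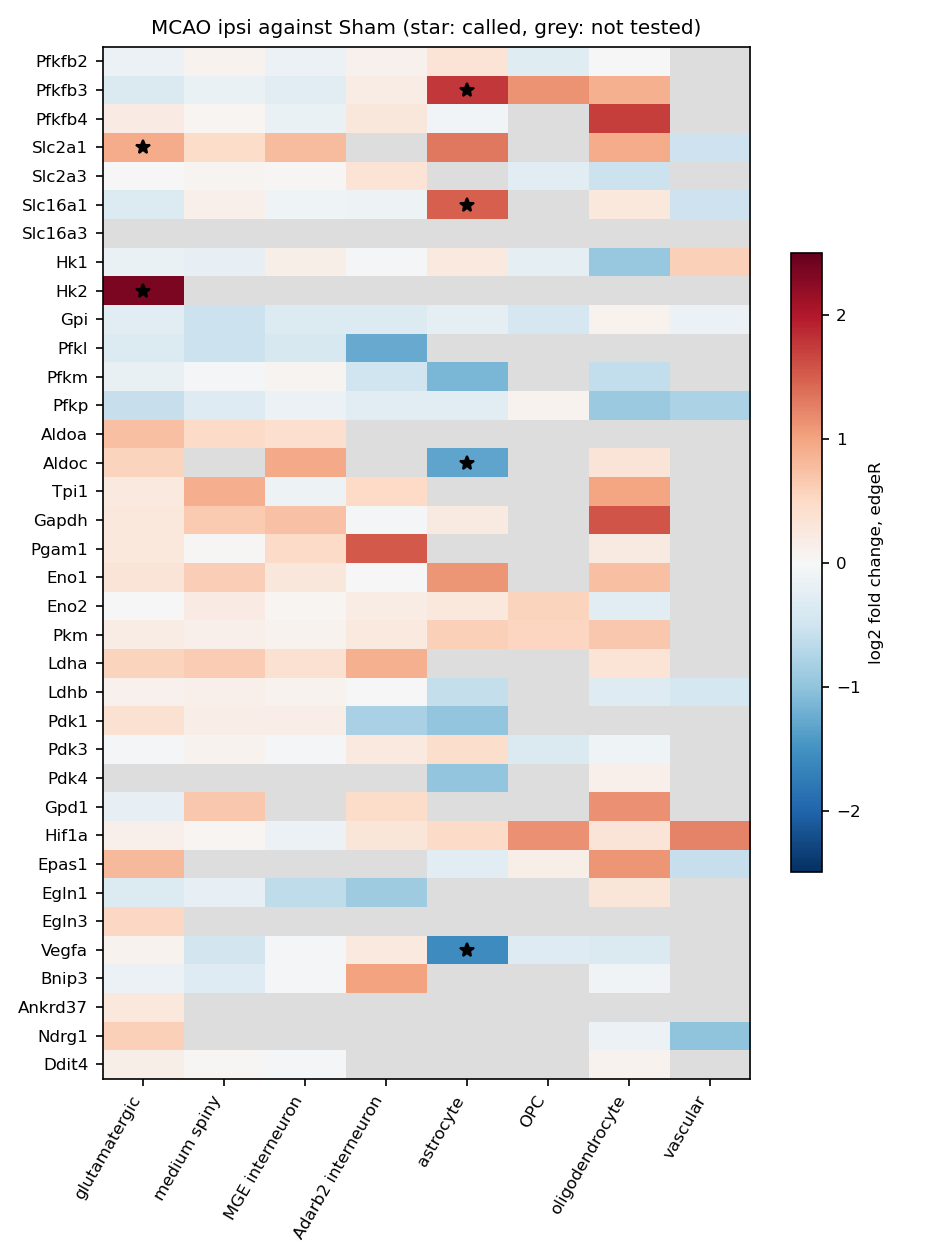
Log2 fold change of the 36 genes in MCAO ipsi against Sham by cell class, from edgeR, with a star where a gene was called and grey where it was not tested. The 6 stars mark Pfkfb3, Slc16a1, Aldoc and Vegfa in astrocytes and Slc2a1 and Hk2 in glutamatergic neurons.

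Among the PFK-2 isozymes, Pfkfb3 rose in astrocytes of the infarcted hemisphere. Its isozyme has a high ratio of kinase to phosphatase activity and so drives glycolytic flux. Pfkfb3 stood at 96.1 CPM (18 UMIs) in Sham L and 85.9 CPM (10 UMIs) in Sham R, at 88.4 CPM (36 UMIs) in mMCAO contra and 165 CPM (42 UMIs) in sMCAO contra, and at 247 CPM (161 UMIs) in mMCAO ipsi and 403 CPM (572 UMIs) in sMCAO ipsi. Both ipsi libraries lay above the other 4, and sMCAO contra lay above both Sham libraries. The log2 fold change was 1.77 ± 0.36 (SE) against Sham (3.41-fold, edgeR adjusted p = 0.00509) and 1.38 ± 0.29 against MCAO contra (2.61-fold, adjusted p = 0.00741). With each astrocyte thinned to 1000 UMIs, a Pfkfb3 UMI was seen in 18.4% (95% exact binomial interval 14.2 to 23.1) of 316 nuclei of mMCAO ipsi and in 29.2% (25.3 to 33.5) of 496 nuclei of sMCAO ipsi. The corresponding shares were 7.14% (3.86 to 11.9) of 182 nuclei in mMCAO contra and 7.32% (2.73 to 15.2) of 82 in sMCAO contra, while Sham left only 32 and 12 nuclei of that depth, with 1 positive nucleus each. These intervals cover counting error only. Unthinned, the shares were 23.1% and 49.5% in MCAO ipsi and 8.33% and 14.3% in MCAO contra.

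Pfkfb3 was not called in the other classes. In glutamatergic neurons it stood at 47.0 and 45.0 CPM in Sham, 46.8 and 47.9 CPM in MCAO contra and 40.9 and 35.6 CPM in MCAO ipsi (log2 fold change -0.35 against Sham, adjusted p = 0.0629), and 3.29% to 4.75% of nuclei thinned to the same depth held a Pfkfb3 UMI. In oligodendrocytes Pfkfb3 stood at 44.1 and 42.4 CPM in Sham, 37.0 and 34.5 CPM in MCAO contra and 64.5 and 95.3 CPM in MCAO ipsi (log2 fold change 0.89 against Sham, adjusted p = 0.0928). Pfkfb4, a further isozyme, stood at 9.05 and 31.8 CPM in Sham oligodendrocytes, 13.5 and 10.6 CPM in MCAO contra and 35 and 66.1 CPM in MCAO ipsi (log2 fold change 1.72 against Sham, adjusted p = 0.101). The oligodendrocyte ipsi libraries lay above the other 4 for both genes, but neither passed the test. Pfkfb2 stood at 41.5 to 45.8 CPM in the 6 glutamatergic libraries and was called nowhere. With mMCAO ipsi left out, so that sMCAO ipsi stood alone and was assumed to vary like the other libraries, 9 of 30 genes of the group were called in oligodendrocytes in each ipsi comparison, against Sham 7 higher and 2 lower (18.6% of all genes called in that fit) and against MCAO contra 9 higher (14.2%). Pfkfb3, Pfkfb4, Gpd1, Gapdh, Tpi1 and Epas1 were among them in both.

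The promoters of the 4 genes called in astrocytes are shown because these genes moved in opposite directions in the summed RNA of the same class. Each runs from 250 bases before to 50 bases after the RefSeq start on build GRCr8, plus strand, at chr17:71944683-71944982 (Pfkfb3), chr2:194812410-194812709 (Slc16a1), chr9:22452604-22452903 (Vegfa) and chr10:63715294-63715593 (Aldoc). Capitals mark ACGTG or GCGTG, the core letters of the hypoxia response element, on either strand, where CACGTG holds a match on each strand.
Pfkfb3: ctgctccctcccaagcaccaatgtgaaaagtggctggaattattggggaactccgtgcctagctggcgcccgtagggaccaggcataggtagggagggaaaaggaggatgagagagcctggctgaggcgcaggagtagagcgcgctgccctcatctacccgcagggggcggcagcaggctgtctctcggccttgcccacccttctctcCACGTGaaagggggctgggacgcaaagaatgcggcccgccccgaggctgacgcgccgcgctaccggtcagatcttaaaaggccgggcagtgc
Slc16a1: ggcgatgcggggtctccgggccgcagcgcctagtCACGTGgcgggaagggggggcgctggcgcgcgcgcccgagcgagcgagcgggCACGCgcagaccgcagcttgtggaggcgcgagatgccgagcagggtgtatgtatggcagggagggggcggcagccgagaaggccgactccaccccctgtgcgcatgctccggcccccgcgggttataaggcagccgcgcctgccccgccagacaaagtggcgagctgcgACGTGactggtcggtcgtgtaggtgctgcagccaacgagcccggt
Vegfa: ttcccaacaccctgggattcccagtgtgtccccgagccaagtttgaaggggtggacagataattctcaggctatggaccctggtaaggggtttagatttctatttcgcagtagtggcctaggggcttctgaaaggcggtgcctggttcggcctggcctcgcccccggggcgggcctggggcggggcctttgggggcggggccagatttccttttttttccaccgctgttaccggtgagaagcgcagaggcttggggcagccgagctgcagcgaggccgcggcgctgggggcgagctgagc
Aldoc: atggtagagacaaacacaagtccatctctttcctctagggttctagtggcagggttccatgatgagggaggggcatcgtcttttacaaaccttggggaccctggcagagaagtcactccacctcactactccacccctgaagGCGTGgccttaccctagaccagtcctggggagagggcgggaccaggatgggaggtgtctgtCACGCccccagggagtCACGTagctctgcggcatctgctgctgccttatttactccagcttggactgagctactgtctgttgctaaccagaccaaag
The Pfkfb3 window held 2 matches, Slc16a1 4, Aldoc 3 and Vegfa 0, so both a gene that rose and a gene that fell carried the letters. Of the 33 genes of the group with a promoter in the RefSeq table, 21 (63.6%) held at least 1 match, as did 42.9% of all 27457 promoters. A match is a description of the sequence and shows no binding. Sequence outside these windows was not examined, so a window without a match does not show that the gene lacks the element.

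Among the carriers, Slc16a1 (MCT1, which moves lactate and pyruvate) rose in astrocytes against Sham. It stood at 26.7 CPM (5 UMIs) in Sham L, 17.2 CPM (2 UMIs) in Sham R, 56.5 and 47.2 CPM in MCAO contra, and 61.5 CPM (40 UMIs) and 73.2 CPM (104 UMIs) in MCAO ipsi. The log2 fold change was 1.49 ± 0.44 against Sham (2.81-fold, edgeR adjusted p = 0.0366) and 0.32 ± 0.29 against MCAO contra (adjusted p = 0.541), and the contra libraries lay close to the ipsi ones. The Sham level rests on 5 and 2 UMIs, and the call was lost without Sham L, Sham R, sMCAO contra or sMCAO ipsi (adjusted p = 0.173 without Sham L), with DESeq2 (0.244) and with only the 4 libraries compared (0.0521). In glutamatergic neurons Slc16a1 stood at 15.6 to 19.5 CPM in all 6 libraries.

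Slc2a1 rose in glutamatergic neurons against Sham, from 2.79 CPM (44 UMIs) in Sham L and 3.74 CPM (39 UMIs) in Sham R to 6.38 CPM (121 UMIs) in mMCAO ipsi and 6.75 CPM (61 UMIs) in sMCAO ipsi. The contra libraries lay between, at 5.13 and 4.69 CPM. The log2 fold change was 0.93 ± 0.22 against Sham (1.90-fold, edgeR adjusted p = 0.0314) and 0.43 ± 0.20 against MCAO contra (adjusted p = 0.243). Vascular nuclei held 972 CPM of Slc2a1 over all libraries, and from the level of vascular markers in these neurons free vascular RNA would give 1.28, 1.29, 1.45, 1.77, 2.09 and 2.10 CPM in the order Sham L, Sham R, mMCAO contra, sMCAO contra, mMCAO ipsi and sMCAO ipsi. In every library this was less than the measured level, and its part in the rise was not tested. In astrocytes Slc2a1 stood at 16.0 and 25.8 CPM in Sham, 22.1 and 35.4 CPM in MCAO contra and 35.3 and 64.1 CPM in MCAO ipsi (adjusted p = 0.162 against Sham). In vascular nuclei it stood at 1301 and 1256 CPM in Sham, 974 and 1428 CPM in MCAO contra and 961 and 873 CPM in MCAO ipsi (adjusted p = 0.432 against Sham). Slc2a3 in glutamatergic neurons stood at 85.9 and 89.7 CPM in Sham, 118 and 105 CPM in MCAO contra and 90.1 and 100 CPM in MCAO ipsi (adjusted p = 0.933 against Sham).

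Among the glycolytic enzymes, Aldoc fell in astrocytes and Hk2 rose in glutamatergic neurons. Aldoc in astrocytes stood at 150 CPM (28 UMIs) and 129 CPM (15 UMIs) in Sham, 133 CPM (54 UMIs) and 130 CPM (33 UMIs) in MCAO contra, and 63.0 CPM (41 UMIs) and 55.6 CPM (79 UMIs) in MCAO ipsi. Both ipsi libraries lay below the other 4, which did not separate by group. Against Sham the log2 fold change was -1.33 ± 0.27 (2.51-fold lower, edgeR adjusted p = 0.00533) and -1.21 ± 0.24 against MCAO contra (2.31-fold lower, adjusted p = 0.00462). Astrocyte levels of Pfkm, the muscle-type phosphofructokinase, were 69.4 and 94.4 CPM in Sham, 61.4 CPM in mMCAO contra, 35.4 CPM in sMCAO contra and 36.9 and 38.7 CPM in MCAO ipsi, and did not pass the test (adjusted p = 0.0605).

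**Figure D3:**
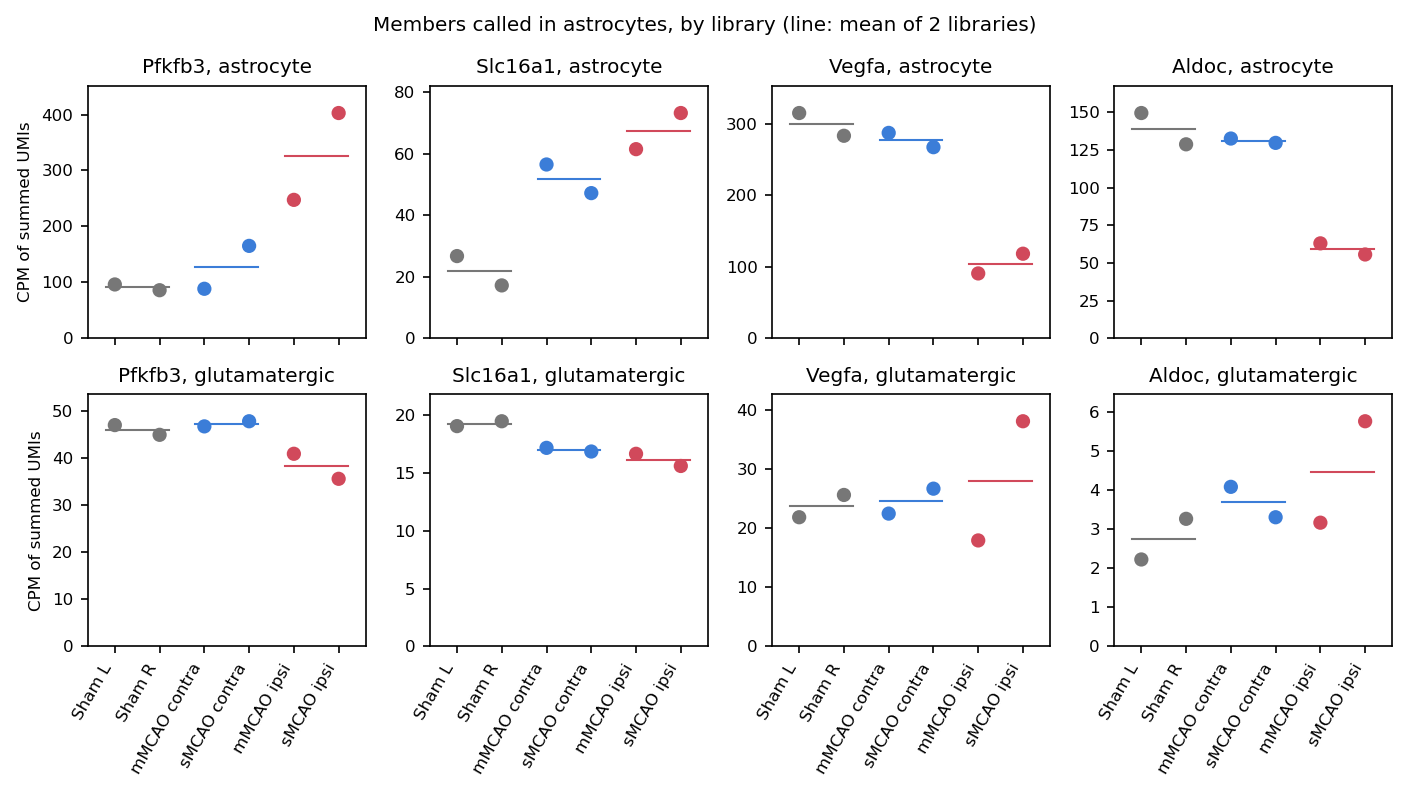
CPM of Pfkfb3, Slc16a1, Vegfa and Aldoc in astrocytes (top) and glutamatergic neurons (bottom), with 1 point per library and a line at the mean of the 2 libraries of a group. In astrocytes both MCAO ipsi points of Pfkfb3 lie above, and those of Vegfa and Aldoc below, the other 4, while Slc16a1 in MCAO contra lies near MCAO ipsi.

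Hk2 was rare in glutamatergic neurons. It stood at 0.254 CPM (4 UMIs) in Sham L, 0.288 CPM (3 UMIs) in Sham R, 0.252 CPM (5 UMIs) in mMCAO contra, 0.434 CPM (5 UMIs) in sMCAO contra, 1.32 CPM (25 UMIs) in mMCAO ipsi and 1.77 CPM (16 UMIs) in sMCAO ipsi. Against Sham the log2 fold change was 2.35 ± 0.50 (5.11-fold, edgeR adjusted p = 0.0238) and 2.21 ± 0.46 against MCAO contra (4.62-fold, adjusted p = 0.0269). Only the MCAO ipsi libraries reached the filter on low counts, so Hk2 was tested through the group where it was high. Its calls were thus selected for a rise. Myeloid nuclei held 136 CPM of Hk2 over all libraries. The summed myeloid markers in the same neurons stood at 13.1 and 15.3 CPM in Sham, 16.7 and 27.0 CPM in MCAO contra and 50.8 and 56.2 CPM in MCAO ipsi. From these, free myeloid RNA would give 0.250 and 0.292 CPM of Hk2 in Sham, 0.318 and 0.513 CPM in MCAO contra, and 0.966 and 1.07 CPM in MCAO ipsi, close to or above the measured level in Sham and MCAO contra and below it in MCAO ipsi. With that amount subtracted, Hk2 no longer passed the filter on low counts, so its change after subtraction was not tested. The part of free myeloid RNA in the rise was not tested either.

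**Figure D4:**
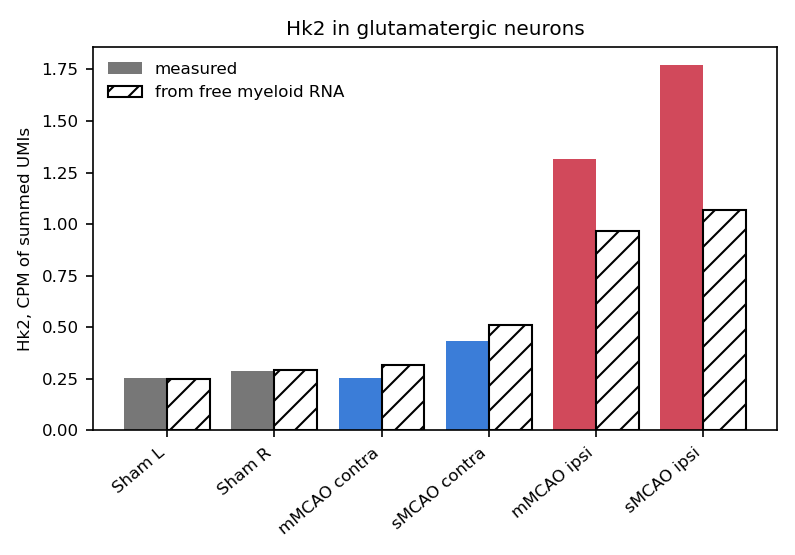
Hk2 in glutamatergic neurons by library, as measured CPM (filled bars) and as the CPM that free myeloid RNA would give (hatched bars). The bars are near equal in Sham, and in sMCAO ipsi 1.77 CPM was measured against 1.07 CPM from free myeloid RNA.

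The other enzymes were called in no class. The platelet-type phosphofructokinase Pfkp stood at 276 and 263 CPM in Sham glutamatergic neurons, 250 and 223 CPM in MCAO contra and 183 and 203 CPM in MCAO ipsi. Its log2 fold change of -0.58 against Sham had an edgeR adjusted p of 0.00905 but missed the size limit of 0.6. Ldha, the lactate-forming dehydrogenase subunit, stood in these neurons at 12.4 and 11.5 CPM in Sham, 16.3 and 15.1 CPM in MCAO contra and 15.9 and 22.3 CPM in MCAO ipsi (adjusted p = 0.0604 against Sham). Aldoa stood at 3.87 and 4.99 CPM in Sham, 6.19 and 5.82 CPM in MCAO contra and 6.59 and 9.62 CPM in MCAO ipsi (adjusted p = 0.0648 against Sham). In oligodendrocytes Gapdh stood at 5.65 and 10.6 CPM in Sham, 10.0 and 9.59 CPM in MCAO contra and 14.2 and 25.7 CPM in MCAO ipsi (adjusted p = 0.127). Hk1, the constitutive brain hexokinase, stood at 75.9 to 87.0 CPM in the 6 glutamatergic libraries. The counts in glutamatergic neurons moved with single libraries, as did the share of all genes called. In both ipsi comparisons that share was lower than with all 6 libraries wherever a Sham or contra library was left out. Against Sham, leaving out Sham L, Sham R, mMCAO contra or sMCAO contra each left 0 calls, leaving out mMCAO ipsi gave 6 of 34 (Aldoa, Aldoc, Hk2, Ldha, Ndrg1 and Slc2a1, with 15.2% of all genes called) and leaving out sMCAO ipsi gave 4 of 35 (Hk2, Pdk1, Pfkp and Slc2a1, with 5.81% of all genes). Against MCAO contra, leaving out any of the same 4 Sham or contra libraries left 0 calls, and leaving out mMCAO ipsi gave 4 of 34 (Aldoa, Hk2, Ndrg1 and Vegfa, with 10.8% of all genes). DESeq2 called neither Hk2 nor Slc2a1 against Sham (adjusted p = 0.0975 and 0.0822).

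No pyruvate dehydrogenase kinase was called, and neither was Gpd1. These kinases divert pyruvate from the mitochondria. Pdk4 stood at 42.7 and 34.3 CPM in Sham astrocytes, 17.2 and 23.6 CPM in MCAO contra and 24.6 and 18.3 CPM in MCAO ipsi (adjusted p = 0.277 against Sham). Gpd1 in oligodendrocytes stood at 202 CPM (179 UMIs) and 162 CPM (46 UMIs) in Sham, 155 CPM (264 UMIs) in mMCAO contra, 293 CPM (305 UMIs) in sMCAO contra, 199 CPM (182 UMIs) in mMCAO ipsi and 610 CPM (1043 UMIs) in sMCAO ipsi. Both libraries of the severe pool lay above the other 4, and mMCAO ipsi lay within the Sham range (log2 fold change 1.14 ± 0.48 against Sham, adjusted p = 0.216).

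Among the HIF subunits, Hif1a rose in OPC against the contralateral hemisphere. It stood at 76.7 CPM (9 UMIs) and 91.8 CPM (6 UMIs) in Sham, 68.9 CPM (25 UMIs) and 82.4 CPM (19 UMIs) in MCAO contra, and 135 CPM (52 UMIs) and 226 CPM (138 UMIs) in MCAO ipsi. Both ipsi libraries lay above the other 4. The log2 fold change was 1.23 ± 0.27 against MCAO contra (2.35-fold, edgeR adjusted p = 0.00298) and 1.13 against Sham (adjusted p = 0.0792). Free myeloid RNA, at the myeloid level pooled over all libraries, would give 3.85 to 9.80 CPM of Hif1a in OPC. With it subtracted, the log2 fold change against MCAO contra was 1.29 (edgeR adjusted p = 0.00367). The call was lost without mMCAO contra and without sMCAO ipsi (0 calls in OPC each), with DESeq2 it missed the threshold (adjusted p = 0.183), and without mMCAO ipsi 2 of 13 genes were called, Hif1a and Pfkfb3 (12.0% of all genes). Against Sham, Hif1a passed the limits for a call in OPC without sMCAO contra or without mMCAO ipsi. The share of all genes called in those fits is not given here, and with all 6 libraries it was 5.13%. These calls are thus not read as particular to the genes of the group.

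In vascular nuclei Hif1a stood at 124 CPM (10 UMIs) and 75.3 CPM (3 UMIs) in Sham, 50.3 CPM (8 UMIs) and 68.0 CPM (4 UMIs) in MCAO contra, and 146 CPM (20 UMIs) and 333 CPM (213 UMIs) in MCAO ipsi. The edgeR adjusted p was 0.129 against MCAO contra and 0.227 against Sham, and without mMCAO ipsi 2 genes, Hif1a and Ndrg1, were called in vascular nuclei in each ipsi comparison (17.3% and 14.1% of all genes called in those fits). In astrocytes Hif1a stood at 90.9 to 107 CPM in Sham and MCAO contra and at 146 and 149 CPM in MCAO ipsi (adjusted p = 0.0994 against MCAO contra), and in glutamatergic neurons at 38.7 to 49.7 CPM in all 6 libraries. Epas1 in vascular nuclei stood at 1326 and 1356 CPM in Sham, 1131 and 1207 CPM in MCAO contra and 918 and 921 CPM in MCAO ipsi (adjusted p = 0.318 against Sham). Egln1, the main prolyl hydroxylase, stood in glutamatergic neurons at 20.9 and 22.4 CPM in Sham, 26.6 and 27.1 CPM in MCAO contra and 17.2 and 19.5 CPM in MCAO ipsi. Its log2 fold change against MCAO contra was -0.53 with an adjusted p of 0.0186, below the size limit, and against Sham -0.35 (adjusted p = 0.0618).

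Among the hypoxia targets, Vegfa fell in astrocytes of the infarcted hemisphere and had the smallest adjusted p of the group. It stood at 315 CPM (59 UMIs) and 283 CPM (33 UMIs) in Sham, 287 CPM (117 UMIs) and 267 CPM (68 UMIs) in MCAO contra, and 90.7 CPM (59 UMIs) and 118 CPM (168 UMIs) in MCAO ipsi. Both ipsi libraries lay below the other 4. Against Sham the log2 fold change was -1.57 ± 0.22 (2.97-fold lower, edgeR adjusted p = 0.000659) and -1.44 ± 0.20 against MCAO contra (2.71-fold lower, adjusted p = 0.000641). Without Sham L the log2 fold change of Vegfa in astrocytes was -1.41 against Sham, and without mMCAO contra it was -1.37 against MCAO contra. Without mMCAO ipsi 7 of 22 genes were called in astrocytes against Sham (22.9% of all genes called in that fit), Pfkfb3, Slc16a1, Slc2a1 and Eno1 higher and Vegfa, Aldoc and Pfkm lower.

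In OPC Vegfa stood at 128 and 122 CPM in Sham, 129 and 126 CPM in MCAO contra and 104 and 103 CPM in MCAO ipsi (adjusted p = 0.713 against Sham). In glutamatergic neurons Vegfa stood at 21.8 and 25.6 CPM in Sham, 22.4 and 26.7 CPM in MCAO contra, 17.9 CPM in mMCAO ipsi and 38.1 CPM in sMCAO ipsi. The ipsi libraries thus fell on either side of Sham (adjusted p = 0.862). The same held in MGE interneurons, at 37.8 and 46.0 CPM in Sham, 50.4 and 64.0 CPM in MCAO contra, 33.5 CPM in mMCAO ipsi and 51.1 CPM in sMCAO ipsi, and in Adarb2 interneurons, at 22.5 and 26.3 CPM in Sham, 33.2 and 52.5 CPM in MCAO contra, 16.1 CPM in mMCAO ipsi and 43.3 CPM in sMCAO ipsi. In both interneuron classes sMCAO contra lay above sMCAO ipsi. In medium spiny neurons Vegfa stood at 22.3 and 23.6 CPM in Sham, 18.8 and 30.7 CPM in MCAO contra, 12.6 CPM in mMCAO ipsi and 23.1 CPM in sMCAO ipsi. Ndrg1 in vascular nuclei stood at 347 and 402 CPM in Sham, 358 and 391 CPM in MCAO contra, 269 CPM in mMCAO ipsi and 133 CPM in sMCAO ipsi (adjusted p = 0.201 against Sham). Bnip3, a mitophagy receptor, stood at 16.5 to 17.5 CPM in the 6 glutamatergic libraries.

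The difference between astrocytes and glutamatergic neurons was tested directly in 1 edgeR model of both classes with the library as a block, a test added after the values were seen. Of 20 genes of the group tested there, 4 differed in their change against Sham (background 12%) and 2 in their change against MCAO contra (background 10.9%). Against Sham, the astrocyte log2 fold change exceeded the neuronal one by 2.10 ± 0.40 for Pfkfb3 (adjusted p = 0.00461) and by 1.84 ± 0.48 for Slc16a1 (adjusted p = 0.0238). It was lower than the neuronal one for Vegfa, with a difference of -1.74 ± 0.29 (adjusted p = 0.00213), and for Aldoc, with -1.94 ± 0.48 (adjusted p = 0.0179). Against MCAO contra the differences were 1.67 ± 0.33 for Pfkfb3 (adjusted p = 0.00625), -1.64 ± 0.26 for Vegfa (adjusted p = 0.00232) and -1.43 ± 0.43 for Aldoc, which missed the threshold (adjusted p = 0.0501).

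Lesion severity was compared as the ratio of CPM in sMCAO ipsi to CPM in mMCAO ipsi, with an exact Poisson 95% interval and no test. Each severity is 1 library, and the interval covers counting error only, not the spread between rats or libraries. Of all genes with at least 20 UMIs, 23.7% had an interval above 1 and 10.8% below 1 in glutamatergic neurons. These shares were 18.6% and 15.8% in myeloid nuclei, 10.9% and 12.0% in oligodendrocytes, and 9.77% and 7.64% in astrocytes. In the remaining classes each share lay between 4.93% and 9.85%. In astrocytes the ratio of Pfkfb3 was 1.63 (1.36 to 1.95) and that of Slc2a1 1.81 (1.14 to 3.00). Between the contralateral libraries of the same pools the ratio of Pfkfb3 in astrocytes was also above 1, at 1.87 (1.17 to 3.00). The intervals of Vegfa (1.30, 0.964 to 1.79), Aldoc (0.883, 0.598 to 1.32) and Slc16a1 (1.19, 0.820 to 1.76) included 1. Pfkfb3 was also higher in the severe library in myeloid nuclei (2.91, 2.25 to 3.81), OPC (1.87, 1.14 to 3.18), Adarb2 interneurons (1.77, 1.06 to 3.00) and oligodendrocytes (1.48, 1.09 to 2.02). The ratio of Vegfa was 2.12 (1.82 to 2.48) in glutamatergic neurons, 2.70 (1.46 to 5.20) in Adarb2 interneurons, 1.83 (1.03 to 3.31) in medium spiny neurons and 1.53 (1.08 to 2.15) in MGE interneurons. In the contralateral libraries the ratio of Vegfa in these classes was 1.19 (1.02 to 1.38), 1.58 (1.02 to 2.44), 1.64 (1.19 to 2.25) and 1.27 (0.965 to 1.67). Hif1a was higher in the severe library in vascular nuclei (2.28, 1.44 to 3.81), myeloid nuclei (1.97, 1.66 to 2.35) and OPC (1.68, 1.21 to 2.35).

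Gpd1 in oligodendrocytes had a ratio of 3.06 (2.61 to 3.60), Pdk4 of 2.22 (1.35 to 3.82) and Pfkfb4 of 1.89 (1.26 to 2.89). Contralaterally the ratio was 1.88 (1.59 to 2.23) for Gpd1, 2.42 (1.45 to 4.10) for Pdk4 and 0.780 (0.343 to 1.67) for Pfkfb4. Gpd1 was also higher in medium spiny neurons (5.99, 1.99 to 24.2), on 19 and 4 UMIs. Ndrg1 in vascular nuclei was lower in the severe library (0.492, 0.331 to 0.745). The mMCAO ipsi and sMCAO ipsi libraries also differed in neuronal share (63.0% and 30.8%) and in median UMIs per glutamatergic nucleus (5113.5 and 8917.5). The vascular class pools endothelial, mural and fibroblast nuclei, with 119 nuclei in mMCAO ipsi and 379 in sMCAO ipsi. Its mural markers stood at 3693 and 1418 CPM and its fibroblast markers at 954 and 1166 CPM. The part of these differences in the ratios was not tested.

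**Figure D5:**
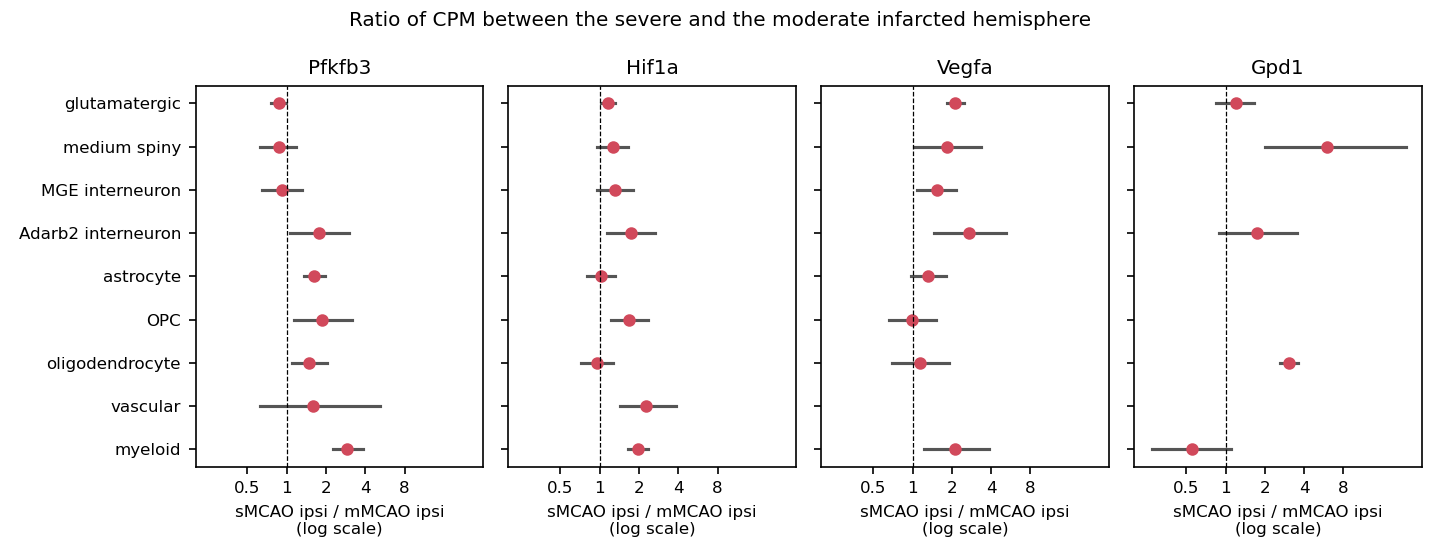
Ratio of CPM in sMCAO ipsi to mMCAO ipsi on a log axis for Pfkfb3, Hif1a, Vegfa and Gpd1 by cell class, with exact Poisson 95% intervals and a dashed line at a ratio of 1; classes with fewer than 20 UMIs, or with 0 UMIs in a library, have no point. Vegfa lies above 1 in the 4 neuronal classes, and Gpd1 in oligodendrocytes at 3.06.

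Myeloid nuclei were too few in Sham for a test. In mMCAO ipsi and sMCAO ipsi they held 63.2 and 184 CPM of Pfkfb3, 149 and 294 CPM of Hif1a and 92.1 and 131 CPM of Pkm, the pyruvate kinase of glycolysis. Hk2 stood at 155 and 127 CPM and Slc2a3 at 23.5 and 6.58 CPM.

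A further 57 genes of glucose, glycogen, lactate and HIF metabolism were examined for context. Against Sham, 3 of 46 tested were called in glutamatergic neurons (1 higher, 2 lower), 1 of 42 in medium spiny neurons (higher), 4 of 30 in astrocytes (1 higher, 3 lower) and 1 of 36 in oligodendrocytes (lower), where 6.03%, 3.09%, 14.8% and 4.56% of all genes were called, and none of 38 in MGE interneurons, 35 in Adarb2 interneurons, 20 in OPC or 9 in vascular nuclei. Against MCAO contra, 1 of 46 was called in glutamatergic neurons (lower), 2 of 30 in astrocytes (1 higher, 1 lower) and 1 of 20 in OPC (lower), where 3.49%, 12.6% and 8.23% of all genes were called. The share of these genes called was near or below the background in each of these classes. In all 9 genes were called, and Slc2a13 was the 1 called in 3 classes. Slc2a13, a proton-coupled myo-inositol carrier, fell in glutamatergic neurons against Sham, from 210 and 214 CPM (190 and 189 CPM in MCAO contra) to 157 and 113 CPM (log2 fold change -0.74 ± 0.14, edgeR adjusted p = 0.0185). In oligodendrocytes Slc2a13 fell from 126 and 98.9 CPM in Sham (101 and 106 CPM in MCAO contra) to 66.7 and 59.0 CPM in MCAO ipsi (log2 fold change -0.90 ± 0.19, adjusted p = 0.0371). Neuronal RNA in oligodendrocytes stood at 24.1% and 21.7% of the neuronal level in Sham and at 13.8% and 8.2% in MCAO ipsi, and with it subtracted the log2 fold change of Slc2a13 was -0.42 ± 0.28 (adjusted p = 0.558). In OPC Slc2a13 fell from 99.2 and 139 CPM in MCAO contra (128 and 61.2 CPM in Sham) to 51.9 and 36.1 CPM in MCAO ipsi (log2 fold change -1.51 ± 0.32, adjusted p = 0.00198). With free neuronal RNA subtracted the log2 fold change was -3.99 ± 1.01 (adjusted p = 0.0225). The subtraction allowed no negative counts and the UMIs that remained are not given here, so the size of this change is uncertain.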

How the data were processed

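Single-nucleus RNA was captured with a 10x 5' kit from 6 pooled libraries. The deposited matrices hold raw UMI counts per gene and nucleus, made by the authors with Cell Ranger 7.0.0 on mRatBN7.2 with intronic reads. The study's removal of free RNA and doublets is not in these counts. Nuclei with at least 500 UMIs, 250 to 5000 genes and at most 5% mitochondrial UMIs were kept. Classes were gated on marker lists, with limits set after marker values were seen, and nuclei scoring for several classes were left out, which was the treatment of doublets. UMIs were summed per library and class, and tested over all 6 libraries with edgeR 4.0.16 (TMM, filterByExpr, quasi-likelihood F test, R 4.3.3) after tests on simulated data. Classes with fewer than 20 nuclei in a library (myeloid, ependymal) were not tested. With 2 libraries against 2, an exact permutation test could not go below 0.333.

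The genes and lists were chosen with earlier results of these data known. Genes called in an ipsi comparison were given by library in the class with the smallest adjusted p, the others by counts and ranges, in the order of their roles. Further genes of the pathway were given by counts, with values for those called in at least 3 classes. Where a value is described for a gene outside these rules, it was chosen after its values were seen. The share of a class taken by free RNA was the level of another class's markers there divided by their level in that class. Alternatives were DESeq2 1.42.0, no filter, other gates, only the libraries compared, the rat pool as a block, each library left out and, chosen after seeing the data, free myeloid RNA subtracted. In bulk sums per class, fewer nuclei of a state and less RNA per nucleus cannot be told apart.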

Additional observations from a re-analysis of the deposited data

Results flagged for a closer look

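Changes in astrocytes and glutamatergic neurons were set against each other in a direct test (edgeR, both classes in 1 model, library as a block). The test was added after the values were seen, and the genes named here were already called in astrocytes from the same counts. Against Sham the difference in log2 fold change, astrocyte minus neuron, was 2.10 for Pfkfb3, 1.84 for Slc16a1, -1.74 for Vegfa and -1.94 for Aldoc. Against MCAO contra it was 1.67 for Pfkfb3 and -1.64 for Vegfa. In 7 alternative settings each, the differences of Pfkfb3 and Vegfa passed the test in 6 in either comparison, that of Aldoc in 5 and that of Slc16a1 in 4. The settings that ended the calls of Pfkfb3 and Vegfa left out Sham L (against Sham) or mMCAO contra (against MCAO contra). Free neuronal RNA in astrocytes stood at 25.8% and 22.3% of the neuronal level in Sham and at 11.6% and 7.7% in MCAO ipsi, and its part in these differences was not tested.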

How the results depend on the processing

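The calls of Vegfa held in every alternative run (13 against Sham and 14 against MCAO contra), with log2 fold changes of -1.80 to -1.40 and -1.64 to -1.28. Those of Pfkfb3 held in 12 of 13 and 13 of 14 and those of Aldoc in 12 of 13 and 12 of 14, Slc16a1 in 6 of 13, Slc2a1 in 6 of 12 and Hif1a in 11 of 14. Hk2 held in 5 of 11 against Sham and 5 of 11 against MCAO contra, where DESeq2 gave it no adjusted p. Both counts for Hk2 leave out the run with free myeloid RNA subtracted, in which it no longer passed the filter on low counts. No named gene changed direction. Subtracting free neuronal RNA for Slc2a13 and Plod2 was an alternative chosen after seeing the data, and each lost its call in 1 of 2 comparisons run. With DESeq2, 0 genes were called in glutamatergic neurons against Sham (4.90% of all genes) or MCAO contra (2.91%). In OPC 0 were called against MCAO contra, where the DESeq2 share of all genes is not given here. The stricter gate left 1 call in glutamatergic neurons against Sham (4.77% of all genes) and 0 against MCAO contra (2.98%). It gave 1 in medium spiny neurons against Sham (Gpi, 2.78% of all genes). Fitting only the 4 libraries compared left 1 (3.22% of all genes) and 0 (1.24%) in glutamatergic neurons. It gave 1 in MGE interneurons in MCAO contra against Sham (Gapdh, 1.23% of all genes). Subtracting free myeloid RNA left 1 (4.85% of all genes) and 0 (2.95%) in glutamatergic neurons. With no filter on low counts, 2 genes were called in glutamatergic neurons against MCAO contra (4.57% of all genes). In medium spiny neurons 1 was called against Sham (3.12% of all genes) and 1 against MCAO contra (1.88%). Against Sham 1 was called in MGE (1.54%) and 1 in Adarb2 interneurons (0.94%). Oligodendrocytes gave 4 in each ipsi comparison, and vascular nuclei 1 against MCAO contra. The share of all genes called there is not given here, so these counts are not read as particular to the genes of the group. For the changes under all of these settings the cause was not tested.

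Leaving out 1 library at a time, calls against Sham ranged from 0 to 6 in glutamatergic neurons, 0 to 2 in medium spiny neurons, 0 to 2 in MGE interneurons, 0 to 1 in Adarb2 interneurons, 1 to 7 in astrocytes, 0 to 1 in OPC, 0 to 9 in oligodendrocytes and 0 to 2 in vascular nuclei. Against MCAO contra the ranges were 0 to 4, 0 to 1, 0 to 1, 0 to 0, 1 to 4, 0 to 2, 0 to 9 and 0 to 2 in the same order. In MCAO contra against Sham they were 0 to 1 in MGE interneurons and in oligodendrocytes and 0 elsewhere. The upper ends were reached without mMCAO ipsi in astrocytes, glutamatergic neurons, oligodendrocytes and vascular nuclei, and without sMCAO ipsi in medium spiny neurons against Sham (Gpi and Tpi1). In astrocytes and glutamatergic neurons the share of all genes called was also highest without mMCAO ipsi, in both ipsi comparisons. That share was also above the one with all 6 libraries where medium spiny neurons and MGE interneurons reached their upper ends in the ipsi comparisons. The same held for Adarb2 interneurons against Sham. None of these ranges is thus read as particular to the genes of the group. Where a group was left with 1 library, that library was assumed to vary like the others. With the rat pool as a replicate block, Vegfa, Pfkfb3 and Aldoc in astrocytes, Hk2 in glutamatergic neurons and Hif1a in OPC kept their calls against MCAO contra (adjusted p = 1.44e-05, 4.93e-05, 0.00152, 0.0178 and 0.00554), and no other alternative with the block was possible, because Sham hemispheres and MCAO hemispheres come from different rats. Unthinned, the share of astrocytes with a Pfkfb3 UMI was 23.1% in mMCAO ipsi and 49.5% in sMCAO ipsi. Depth limits the Sham values of the genes called, with 2 to 59 UMIs a library behind the 4 genes in astrocytes, 9 and 6 behind Hif1a in OPC and 4 and 3 behind Hk2 in glutamatergic neurons.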

Other observations

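Gpd1 in OPC was seen in 25 UMIs of sMCAO ipsi (41.0 CPM) and in 0 UMIs of mMCAO ipsi. Oligodendrocytes held far more Gpd1. Their summed markers stood at 680 CPM in OPC of mMCAO ipsi and 732 CPM in OPC of sMCAO ipsi. In oligodendrocytes of these libraries they stood at 15317 and 16626 CPM. The part of oligodendrocyte RNA in the Gpd1 counts of OPC was not tested. Plod2, a collagen lysyl hydroxylase and known hypoxia target of the wider pathway list, rose in astrocytes from 10.7 and 17.2 CPM in Sham and 17.2 and 7.86 CPM in MCAO contra to 41.5 and 84.5 CPM in MCAO ipsi (log2 fold change 2.23 ± 0.67 against Sham, edgeR adjusted p = 0.0385, and 2.22 ± 0.51 against MCAO contra, adjusted p = 0.0117). With free neuronal RNA subtracted these were 1.98 ± 0.68 (adjusted p = 0.0953) and 2.08 ± 0.53 (adjusted p = 0.0329). Plod2 also rose in glutamatergic neurons against Sham by a log2 fold change of 1.95 ± 0.39 (adjusted p = 0.0203). Plod2 was singled out after its values were seen. In astrocytes only its MCAO ipsi levels reached the filter on low counts. It thus entered the astrocyte tests through the group where it was high, and its calls there were selected for a rise.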
